A study of Rattus norvegicus with 70 samples.

Results

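The drug and bile acid transporter genes were taken as every region of the deposited tables whose gene symbol belongs to the ABC families Abca to Abcg or to the solute carrier families Slco, Slc22a and Slc10a. Of 17174 regions around transcript starts, 88 met this rule, and they carry 84 genes when several places of a transcript are counted once. The family sizes were 8 regions for Abca, 9 for Abcb, 12 for Abcc, 4 for Abcd, 1 for Abce, 3 for Abcf, 10 for Abcg, 8 for Slc10a, 17 for Slc22a and 16 for Slco. The rule reads gene symbols and no measured value, but it was chosen with earlier results of these data known. DNA came from livers of outbred Crj:CD(SD)IGS rats in a hepatocarcinogenesis scheme with an initiating treatment, a withdrawal and then promotion of tumour growth. Methylated fragments were captured with a methyl-binding protein (MBD sequencing), so a higher signal in a region stands for more captured fragments and not for a methylation fraction.

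There were 7 conditions at 2 times with 5 libraries each, 70 libraries in all. The water controls received 0.5% methylcellulose and plain water. The promoted controls, called vehicle here, received 0.5% methylcellulose and then 500 ppm phenobarbital in the drinking water. The initiated groups were given 3 or 30 mg/kg of diethylnitrosamine (DEN, which alkylates DNA), 45 mg/kg of thioacetamide, 100 mg/kg of methapyrilene or 1000 mg/kg of acetaminophen, each followed by 500 ppm phenobarbital. The higher DEN dose was given for a shorter time because the rats lost weight. Phenobarbital is thus shared by every group but the water controls. The earlier liver samples are from partial hepatectomy, when promotion had lasted 1 week, and the later ones from terminal euthanasia at 6 weeks, and the rats of the second time had undergone the operation. A liver is a mixture of cells, and a shift in the cells present cannot be told apart from a shift of methylation within them.

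These families move drugs, bile acids, lipids and organic ions across hepatocyte membranes. Slco, Slc22a and Slc10a carriers mostly take substrates up from blood, while ABC pumps use ATP to export them into bile or back to blood. Bile acids cycle between liver and gut: Slc10a1 takes them into the hepatocyte and Abcb11 pumps them into bile. Phenobarbital is a classic inducer of drug metabolism through the nuclear receptors CAR and PXR, which also act on several transporter genes. CpG-dense promoters usually lack methylation in normal tissue, whereas CpG-poor promoters are more often methylated. Not every member is a carrier: Abce1 recycles ribosomes and the Abcf proteins act in translation.

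Of the 88 regions, 73 were matched to a RefSeq promoter of the GRCr8 build. The 250 bases before the start are printed for 5 genes, with each CpG in capitals, because they show how the highest and a very low member compare and carry the genes with the smallest p-values discussed further on. They lie on the plus strand at chr14:5069300-5069549 for Abcg3 and chr3:28642534-28642783 for Abca2. On the minus strand they lie at chr4:26280030-26280279 for Abcb1b, chr6:106357945-106358194 for Slc10a1 and chrX:157309850-157310099 for Slc10a3.
Abca2: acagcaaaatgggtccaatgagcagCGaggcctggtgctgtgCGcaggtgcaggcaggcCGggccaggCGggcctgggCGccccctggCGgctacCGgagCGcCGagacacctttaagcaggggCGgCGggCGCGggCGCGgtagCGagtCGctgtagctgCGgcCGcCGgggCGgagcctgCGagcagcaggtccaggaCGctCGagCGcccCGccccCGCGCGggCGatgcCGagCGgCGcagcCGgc
Slc10a3: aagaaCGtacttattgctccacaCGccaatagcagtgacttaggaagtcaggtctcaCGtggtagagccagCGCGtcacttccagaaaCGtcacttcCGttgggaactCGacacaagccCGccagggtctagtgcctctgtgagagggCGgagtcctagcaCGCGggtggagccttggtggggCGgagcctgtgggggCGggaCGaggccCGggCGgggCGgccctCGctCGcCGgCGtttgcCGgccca
Slc10a1: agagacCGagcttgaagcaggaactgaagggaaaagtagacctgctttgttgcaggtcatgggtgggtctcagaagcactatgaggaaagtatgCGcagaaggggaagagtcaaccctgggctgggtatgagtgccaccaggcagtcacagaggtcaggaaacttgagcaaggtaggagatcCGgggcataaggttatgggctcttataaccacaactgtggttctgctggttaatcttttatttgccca
Abcg3: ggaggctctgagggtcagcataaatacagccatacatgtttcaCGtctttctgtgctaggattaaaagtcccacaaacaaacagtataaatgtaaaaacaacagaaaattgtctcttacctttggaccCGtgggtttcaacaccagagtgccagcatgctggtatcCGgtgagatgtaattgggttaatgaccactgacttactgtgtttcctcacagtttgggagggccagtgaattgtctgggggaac
Abcb1b: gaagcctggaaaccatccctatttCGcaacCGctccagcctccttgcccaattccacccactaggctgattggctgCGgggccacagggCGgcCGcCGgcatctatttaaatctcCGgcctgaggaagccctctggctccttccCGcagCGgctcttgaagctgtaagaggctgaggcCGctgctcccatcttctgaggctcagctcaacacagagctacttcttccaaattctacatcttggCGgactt
The stretches hold 34 CpGs for Abca2, 23 for Slc10a3, 11 for Abcb1b and 3 each for Slc10a1 and Abcg3. Abca2 and Slc10a3 thus both start in CpG-dense sequence, yet the mean signal of their deposited regions over 70 libraries was 343 and 5.19. The deposited region is much longer, 5625 bp that begin 4500 bp before the start, so the printed bases are only a part of what was counted. Over the 300 bases around the start (250 before, 50 after), observed over expected CpG was 0.96 for Abca2, 0.85 for Slc10a3, 0.59 for Abcb1b, 0.19 for Abcg3 and 0.17 for Slc10a1.

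Signal is the authors' number of reads per region scaled to a common total of 50 M, and 1 read was worth 0.883 to 1.19 signal units, so a signal of 25 rests on about as many reads. Member regions had a median signal of 65.5 against 53.5 over all regions, and 52 of the 88 lay above that median. By family the median was 111 for Abca, 101 for Abcc, 82.5 for Abcb, 78.4 for Slc10a, 74.8 for Abcf, 64.9 for Slc22a, 58.3 for Slco, 42.8 for Abcd and 38.7 for Abcg, and the single Abce region had 16.7. All 8 Abca regions lay above the median of all regions, against 3 of 10 for Abcg.

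**Figure D1:**
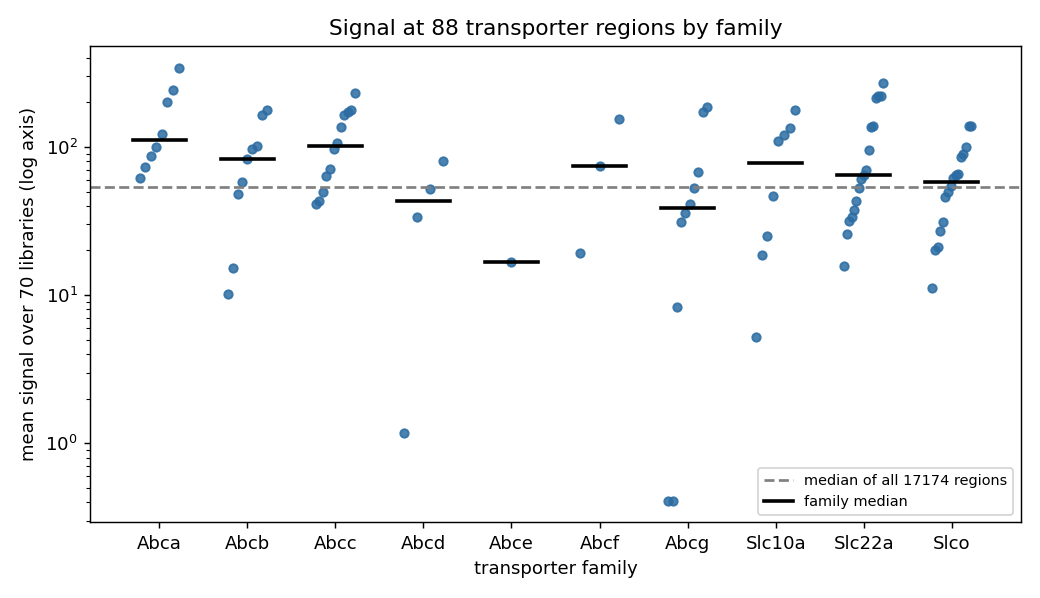
Each point is the mean signal of 1 transporter region over 70 libraries (log axis), grouped by family, with the family median as a black bar and the median of all 17174 regions as a dashed line. Every family with more than 1 region spreads over a wide range, from 0.41 to 187 in Abcg, and all 8 Abca points lie above the dashed line.

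The 5 highest members were Abca2 (an endolysosomal lipid transporter) at 343 ± 78.6 (SD, n = 70 libraries), Slc22a14 at 269 ± 58.2, Abca5 at 241 ± 49.2, the first of the 2 places of Abcc4 at 230 ± 57.2 and Slc22a7 at 220 ± 49.3. Abcc4 exports cyclic nucleotides and bile acids to the blood side, and Slc22a7 is the liver's organic anion carrier OAT2. The region of Abca2 spans chr3:3590923-3596548 in the coordinates of the files, of which the sources used here give no build. At the low end stood Abcg3l2 and Abcg3l4 at 0.41 ± 1.10, Slc10a3 at 5.19 ± 3.38 and Abcg3l1 at 8.25 ± 3.84. The regions of Abcg3l2 and Abcg3l4 overlap over 5618 of 5625 bp and count the same reads. Some member regions also share bases with the region of a gene outside the rule. Abcc6 shares 4980 bp with Nomo1, and Slco1a5 shares 4332 bp with Iapp. The second place of Slc10a7 shares 2951 bp with Rbmxrtl, and Abce1 shares 2303 bp with Anapc10. Signal in such a region is not that of the transporter gene alone. Abcg3 and its Abcg3l copies are related genes, so reads could be assigned to the wrong copy, and their values are uncertain. How alike their sequences are was not measured. The same caution holds for Abcb1a with Abcb1b and for the Slco1a genes.

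Among the bile acid and drug uptake carriers, Slc10a1 had a mean of 25.2 ± 9.83 over the 70 libraries, with group means from 16.7 to 31.1. The intestinal bile acid carrier Slc10a2 had 18.6 ± 8.57. The organic anion carrier listed as Slco1b3, whose transcript is Slco1b2 in RefSeq, had 20.3 ± 8.31, with group means from 13.1 to 31.4. Slco2b1 had 64.5 ± 15.4, Slco1a4 had 45.6 ± 12.01, and the 2 regions of Slco1a1 had 61.9 ± 10.97 and 11.1 ± 7.16. The organic anion carrier Slc22a7 had group means from 183 to 246. Liver uptake carriers were therefore found at both low and high signal.

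Among the pumps of the bile canaliculus, Abcb11 (the bile salt export pump) had 82.5 ± 18.2, Abcc2 (conjugated bilirubin and glutathione conjugates) 63.6 ± 14.1 and Abcg2 (urate and many drugs) 68.1 ± 12.7. Abcb4, which moves phosphatidylcholine into bile, was low at 10.2 ± 5.42. P-glycoprotein is encoded in rats by Abcb1a, at 47.8 ± 15.3, and Abcb1b, at 101 ± 23.2. The sterol exporters Abcg5 and Abcg8, which are transcribed away from each other and whose regions overlap by 2456 bp, had 172 ± 33.9 and 53.1 ± 13.97. On the blood side, Abcc3 had 96.3 ± 21.7, the cholesterol exporter Abca1 87.1 ± 17.95, and the second place of Abcc4 165 ± 33.1. These SDs run over libraries of all groups and both times.

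The order of the members was much the same in all 14 groups. Over the 85 members tested, Spearman's rho between 2 groups' means ranged from 0.977 to 0.991 in the 91 pairs of groups, a description over members that share libraries. The ratio of the highest to the lowest group mean had a median over members of 1.33 at partial hepatectomy and 1.34 at terminal euthanasia, and stayed below 2 for 80 of 85 members at each time.

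Of the 73 member regions with a promoter, 31 were CpG-rich by the 300 bases around the start (observed over expected at least 0.6, GC at least 50%) and 42 CpG-poor. They hold 69 different promoters, since genes placed more than once share one. Over all regions, 6972 of the 13495 with a promoter were CpG-rich. The median region signal of the members was 73.4 in the CpG-rich and 57.2 in the CpG-poor class, while over all regions these were 52.3 and 53.5. Spearman's rho between observed over expected CpG and signal was 0.22 over 73 member regions and 0.063 over 13495 regions, given as a description. The Sp1 box GGGCGG was found on either strand in 35 of 69 different member promoters (50.7%) against 34.9% of all promoters of this length. The core of the xenobiotic response element, GCGTG, was found in 29 (42.03% against 31.1%), and the antioxidant response element TGACNNNGC in 9 (13.04% against 12.2%). TATAAA was found in 10 (14.5% against 14.3%). The full inverted repeat bound by the bile acid receptor FXR and the full palindromic HNF1 site were in none of the 69 and in 0.0255% and 0.00364% of all promoters. Sp1 and xenobiotic matches need a CpG, and how their counts relate to CpG density was not tested. The motif shares of all promoters are over 27457 promoters, not those of the 13495 regions alone.

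Libraries did not all behave alike. In 9 of the 70, under 1% of regions had no read, against a median of 3.502% over all 70, and these are called weakly enriched here. At partial hepatectomy they are replicate 5 of water and of acetaminophen, and DEN 30 mg/kg replicates 3 and 4. At terminal euthanasia they are replicate 5 of the vehicle, replicate 3 of DEN 30 mg/kg, methapyrilene and acetaminophen, and replicate 4 of thioacetamide. Of the 33 tested members below the median of all regions, 27 had a higher median in these 9 libraries than in the other 61. Of the 52 members at or above it, 7 did. These counts were not made over all regions, so they are not read as particular to the transporters. The libraries numbered 61 to 70, which are replicate 5 of every initiated group and of no control, had scaling totals that repeat those of 10 earlier libraries, and the median ratio of their member signals to the others was 1.22, as over all tested regions.

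At partial hepatectomy, limma found no member changed in any of the 7 contrasts at an adjusted p under 0.05, of 84 members tested (all regions: 0 of 15809 called, 0%), and edgeR and DESeq2 called no member either. For phenobarbital against water, 8 members (4 higher, 4 lower) had an unadjusted p under 0.05, and edgeR and DESeq2 each gave 8 as well. In limma that is a share of 9.52% against 6.28% of all regions (615 higher, 378 lower). The shares of all regions in edgeR and DESeq2 are not given here. The counts for DEN 3 mg/kg, DEN 30 mg/kg, thioacetamide, methapyrilene and acetaminophen against vehicle were 2, 6, 3, 6 and 2, with 3.17%, 7.64%, 4.44%, 3.67% and 3.68% of all regions past the same limit. DEN 30 against 3 mg/kg gave 4 members, and 5.22% of all regions. Leaving out 1 library at a time moved these counts to 1 to 5 for DEN 3 mg/kg, 3 to 9 for DEN 30 mg/kg, 2 to 5 for thioacetamide, 3 to 9 for methapyrilene, 2 to 7 for acetaminophen and 2 to 8 for DEN 30 against 3 mg/kg. Examples follow, with the share of all regions past the same limit in brackets. Without vehicle replicate 4 the count was 5 for DEN 3 mg/kg (3.18%) and 3 for DEN 30 mg/kg (6.8%). Without vehicle replicate 3 it was 3 for methapyrilene (3.4%). Without replicate 3 of acetaminophen it was 7 for that group (4.7%). Without replicate 1 of thioacetamide its count was 5 (4.12%), and without replicate 2 of DEN 30 mg/kg the count between the doses was 8 (6.6%). The unadjusted 95% interval of a member had a median reach of 0.43 on the log2 scale to either side. Fold changes here are differences of log2(signal + 1), which understate changes of low regions.

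**Figure D2:**
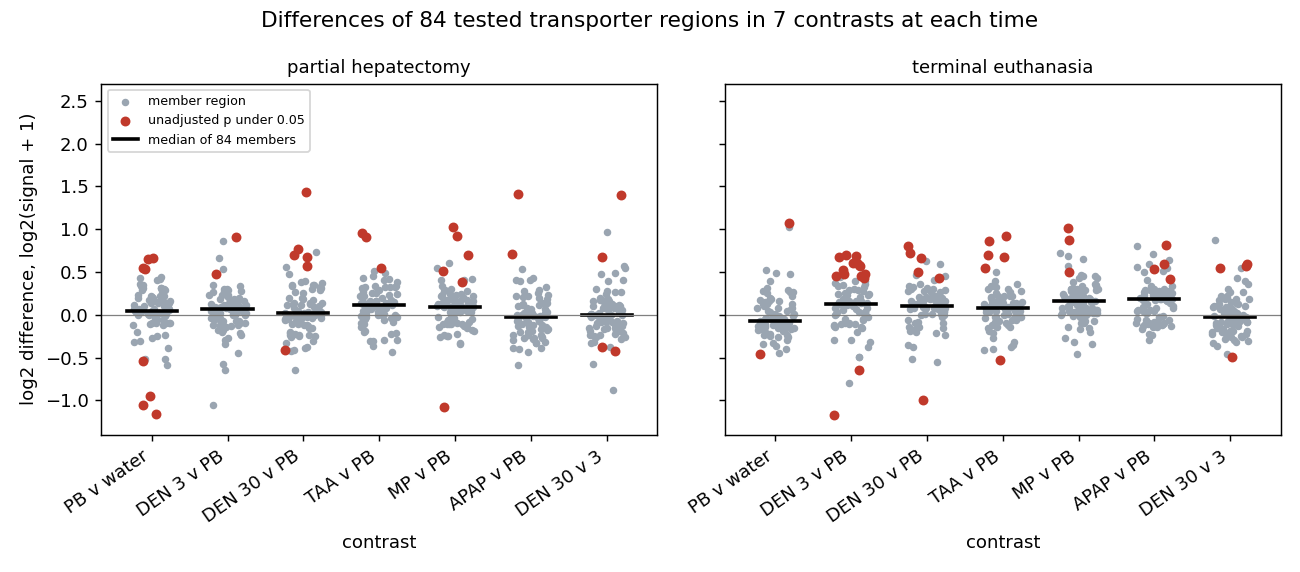
Each point is the log2 difference of 1 of 84 transporter regions in a contrast, on the log2(signal + 1) scale, with red points at an unadjusted p under 0.05 and the median as a black bar, at partial hepatectomy (left) and terminal euthanasia (right). Medians lie between -0.07 and 0.18, and none of the red points passed adjustment over all regions.

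The smallest p-values of the first time belonged to Abcg3, an ABCG family member found in rodents, whose region is chr14:5883971-5889596. In the vehicle group its 5 libraries had 28.4, 28.9, 23.3, 20.7 and 14.1. In the water controls they had 58.99, 47.2, 36.3, 37.9 and 43.5. The vehicle group was thus lower than water in every library, without overlap (mean 23.1 ± 6.10 against 44.8 ± 9.06, SD, n = 5). The log2 difference was -0.95 ± 0.25 (SE), with an adjusted p of 0.56 in limma, and values did not overlap for 0.98% of all regions in this contrast.

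Every initiated group also had a higher Abcg3 mean than the vehicle group. With DEN 3 mg/kg the libraries had 34.9, 46.7, 38.8, 48.9 and 46.99, all above the vehicle group (log2 difference 0.91 ± 0.25, limma's adjusted p = 1.00), where 0.677% of all regions did not overlap. With thioacetamide they had 38.6, 54.2, 35.7, 44.2 and 44.2, again without overlap (0.91, adjusted p = 0.89), as for 0.943% of all regions. With methapyrilene they had 31.5, 49.6, 30.9, 50.6 and 62.2, also without overlap (0.92, adjusted p = 0.88), as for 0.886%. The DEN 30 mg/kg libraries, at 33.9, 22.1, 42.2, 55.2 and 36.96, overlapped the vehicle group, and without the weakly enriched libraries the difference went from 0.68 to 0.42. Acetaminophen, at 25.7, 37.1, 36.6, 45.4 and 44.6, overlapped it too (0.70, adjusted p = 0.99). All 6 contrasts share the same 5 vehicle libraries, so they are not separate evidence. In the authors' deposited table, whose p-values are not adjusted, Abcg3 had 0.00300 for water and 0.000777 for DEN 3 mg/kg against the same group.

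At terminal euthanasia Abcg3 showed no such gap. The vehicle libraries had 22.8, 43.98, 45.6, 53.03 and 52.6 (mean 43.6 ± 12.3), and the other 6 group means lay between 40.2 and 49.6. The difference between the times of the phenobarbital against water contrast was 1.05 ± 0.40 on the log2 scale, with an adjusted p of 0.72 in limma. Under the alternatives that contrast at the first time ranged from -1.04 to -0.73 with adjusted p from 0.17 to 1.00.

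**Figure D3:**
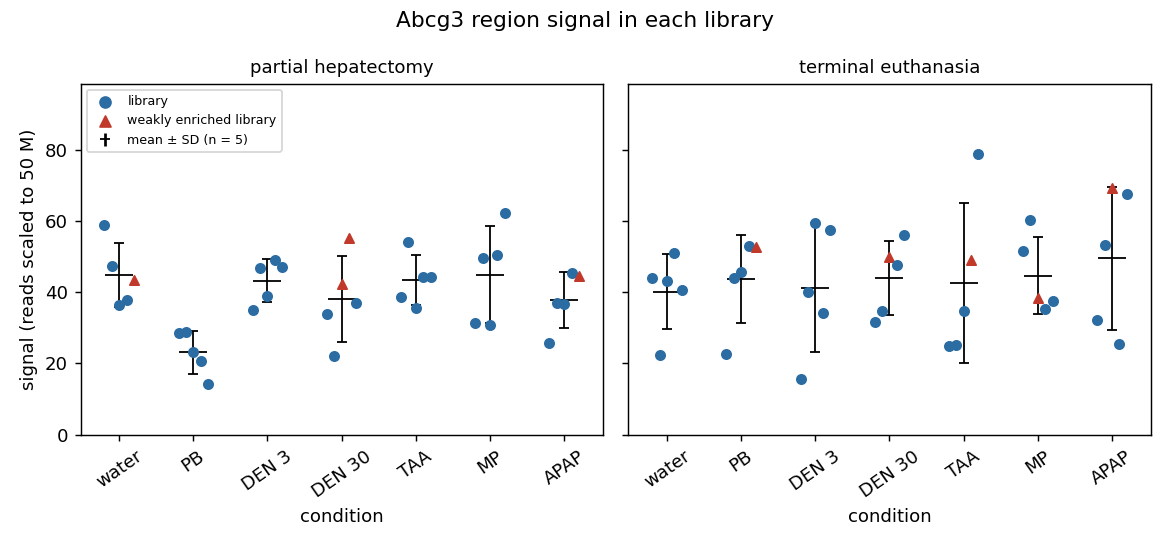
Abcg3 region signal (reads scaled to 50 M) in each of 70 libraries, by condition, at partial hepatectomy (left) and terminal euthanasia (right); circles are libraries, triangles the weakly enriched ones, and bars the mean ± SD (n = 5). At partial hepatectomy the vehicle group (PB) lies between 14.1 and 28.9, below all 5 water libraries.

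The P-glycoprotein gene Abcb1b was also among the members with the smallest p-values for phenobarbital against water, though it did not pass adjustment. It had 69.99, 84.2, 101, 62.1 and 53.7 in the water libraries. In the vehicle libraries it had 127, 100.0, 102, 137 and 112, and only the highest water library reached into their range. The log2 difference was 0.66 ± 0.18 (SE), limma's adjusted p = 0.58, and 0.55 without the weakly enriched libraries. The conjugate exporters Abcc1 (0.66 ± 0.23) and Abcc3 (0.55 ± 0.20) and the lipid transporter Abca2 (0.53 ± 0.22) were also higher, each with an adjusted p of 0.73 and overlapping groups. Without the weakly enriched water library the Abcc3 difference was 0.34. Lower in the vehicle group, beside Abcg3, were Abce1 (-1.16), Abcg8 (-0.54) and Slc22a23 (-1.05), none past adjustment. Without the weakly enriched water library, replicate 5, the Abce1 difference was -0.82. Without that library 4 members instead of 8 had an unadjusted p under 0.05, against 3.43% of all regions. Without replicate 2 of the water control 13 members had, against 8.46% of all regions. At terminal euthanasia Abcb1b differed by less than its spread between these groups, 98.1 ± 24.4 against 84.2 ± 11.7.

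The translation factor Abce1 shows how closely some low regions followed the library. Across both times its signal was 23.02 to 52.6 in the 9 weakly enriched libraries (median 35.7) and 2.08 to 28.7 in the other 61 (median 13.3). For DEN 30 mg/kg at partial hepatectomy it had 17.99, 18.9, 23.02, 31.1 and 11.3, against 3.16, 10.001, 3.18, 9.82 and 11.3 in the vehicle group. The groups did not overlap but nearly met, at a log2 difference of 1.43 ± 0.47 and an adjusted p of 0.52, where 1.20% of all regions did not overlap. Without the weakly enriched libraries the difference was 1.13 (adjusted p = 0.90), and for acetaminophen it went from 1.41 to 1.08. At terminal euthanasia the vehicle group held its highest value, 52.6, in its weakly enriched replicate 5. The part of weak enrichment in these differences was not tested beyond that comparison.

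**Figure D4:**
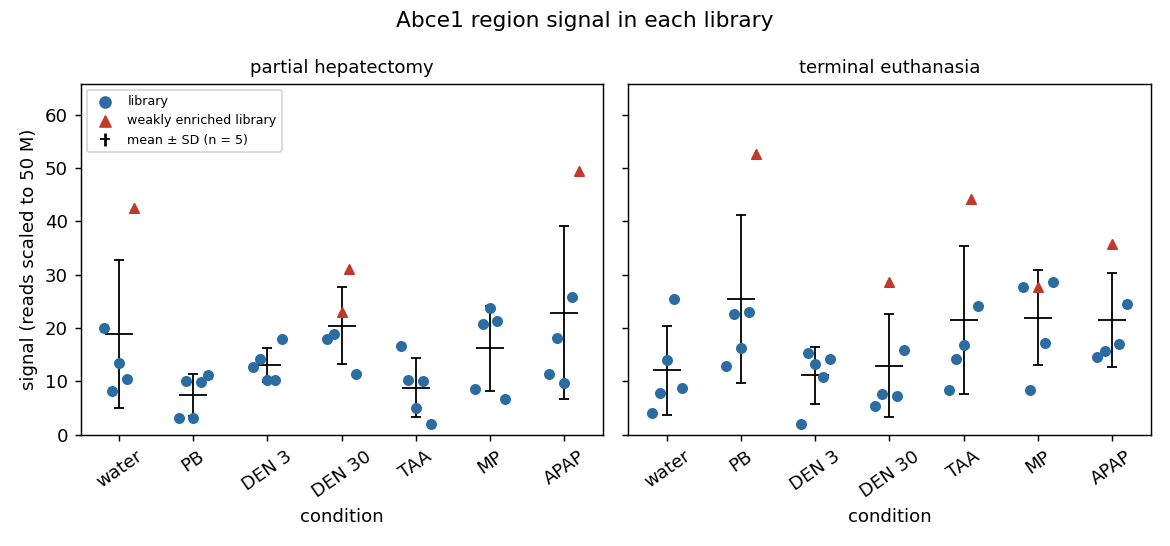
Abce1 region signal (reads scaled to 50 M) in each of 70 libraries, by condition, at partial hepatectomy (left) and terminal euthanasia (right); circles are libraries, triangles the weakly enriched ones, and bars the mean ± SD (n = 5). The triangles lie between 23.02 and 52.6 and the circles between 2.08 and 28.7.

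Among the sterol exporters, Abcg8 was highest in methapyrilene-treated livers at partial hepatectomy, at 47.7, 67.7, 56.5, 55.9 and 81.1. The vehicle libraries had 25.3, 43.3, 39.2, 40.4 and 39.5, all lower (log2 difference 0.70 ± 0.24, limma's adjusted p = 1.00, with 0.886% of all regions not overlapping). Its partner Abcg5 differed by 0.39 ± 0.17 in the same contrast. The regions of Abcg5 and Abcg8 share 2456 bp, so these differences are not separate observations. The uptake carrier Slco1b3 had 28.2 ± 9.15 with DEN 30 mg/kg and 31.4 ± 8.12 with thioacetamide, against 16.5 ± 6.55 in the vehicle group (SD, n = 5). These differences of 0.77 and 0.95 did not pass adjustment, at 0.62 and 1.00. For DEN 30 mg/kg, with 2 weakly enriched libraries of 5, the Slco1b3 difference was 1.09 without them and 0.29 with quantile normalization. For thioacetamide it ranged from 0.66 to 1.10 over the alternatives. Thioacetamide also gave 62.998 ± 17.9 against 43.8 ± 14.6 at the second place of Slc10a7 (0.54 ± 0.25, adjusted p = 1.00), and 0.40 without libraries 61 to 70. Slc22a6, an organic anion carrier of the kidney, lay at 31.3 to 43.2 with thioacetamide, above the vehicle range of 23.3 to 30.0 (log2 difference 0.49 ± 0.26, limma's adjusted p = 1.00), where 0.943% of all regions did not overlap.

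DEN 30 against 3 mg/kg compares 2 doses of the same initiator. Abcb4 had 14.2 ± 9.99 at the higher and 4.80 ± 2.95 at the lower dose, a log2 difference of 1.40 ± 0.53 with an adjusted p of 0.91 in limma. Without the weakly enriched libraries, both of which are in the higher dose, it was 0.70. The testis carrier Slco6c1 was lower at the higher dose, 92.8 ± 12.8 against 125 ± 14.5 (-0.43 ± 0.18, adjusted p = 0.91). No member's libraries separated fully between the doses at either time, against 0.614% and 0.275% of all regions.

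At terminal euthanasia, limma called no member in the 7 contrasts (0 of 16008 regions called, 0%), nor did edgeR or DESeq2. DEN 3 mg/kg against vehicle had the most members at an unadjusted p under 0.05, 15 of 84 (17.9%, 13 higher and 2 lower). Over all regions the share was 8.51% (895 higher and 468 lower). That count turned on few libraries, and the share of all regions moved too. Without replicate 5 of the vehicle group, which is weakly enriched, it was 7, against 3.45% of all regions. Without replicate 1 of DEN 3 mg/kg the count was 8, against 9.61% of all regions. With quantile normalization it was 11 (8 higher, 3 lower), with edgeR 10 (7 and 3) and with DESeq2 11 (8 and 3). The shares of all regions under these settings are not given here, so these counts cannot be set against them. The median over all regions in this contrast moved from 0.089 in limma to -0.031 in DESeq2, and that of the members from 0.125 to 0.012. For acetaminophen at this time they moved from 0.11 to -0.01 and from 0.18 to 0.05, so differences of these contrasts are relative to that shift.

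The remaining counts at this time were 2 members for phenobarbital against water (3.17% of all regions), 6 for DEN 30 mg/kg (3.41%) and 6 for thioacetamide (2.06%). Methapyrilene gave 3 (2.57%), acetaminophen 4 (2.76%) and DEN 30 against 3 mg/kg 4 (3.01%). Leaving out 1 library at a time gave 0 to 3 for phenobarbital against water, 3 to 9 for DEN 30 mg/kg, 2 to 8 for thioacetamide, 2 to 7 for methapyrilene, 3 to 6 for acetaminophen and 1 to 5 for DEN 30 against 3 mg/kg. Without vehicle replicate 5 the count for phenobarbital was 0 (2.62% of all regions). Without vehicle replicate 2 it was 3 for DEN 30 mg/kg (3.4%) and 2 for thioacetamide (1.98%). Without vehicle replicate 3 it was 7 for methapyrilene (3.06%). Without DEN 30 mg/kg replicate 3, which is weakly enriched, that group had 9 and the contrast of the doses 1 (2.41% for the doses). The share of all regions that goes with the 9 is not given here. By the same limit the authors' deposited table has between 1 and 8 members for each group of this time against the vehicle group. These are 1.16% to 9.30% of the members with a p-value, where 2.11% to 4.31% of all regions passed.

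The 3 smallest p-values of the DEN 3 mg/kg contrast belonged to uptake carriers. The gonadal carrier Slco6b1 had 182 ± 27.8 against 125 ± 42.4 in the vehicle group, the urate carrier Slc22a12 had 286 ± 38.3 against 199 ± 66.2, and the organic anion carrier Slc22a8 had 92.8 ± 22.3 against 60.5 ± 13.3. Their log2 differences were 0.60, 0.58 and 0.60, each with an adjusted p of 0.58 in limma. The difference of Slc22a12 was 0.28 with quantile normalization, and that of Slco6b1 was 0.38 without replicate 5 of the vehicle group. Groups did not overlap for Abcc3, at 103 to 131 against 66.9 to 102, nor for the pump Abcc12, at 158 to 192 against 88.1 to 146, 2 members where 1.17% of all regions did not overlap. Abce1 and Slc22a18 were the members that lay lower.

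The main bile acid uptake carrier, Slc10a1, was low in 4 of 5 vehicle libraries at terminal euthanasia, at 13.9, 9.51, 12.2 and 14.99, and at 33.2 in the weakly enriched replicate 5. With DEN 30 mg/kg it had 20.8, 36.9, 25.4, 24.8 and 30.7. With methapyrilene it had 24.9, 59.4, 23.9, 21.8 and 25.4, where replicate 2 stands far above the rest. The log2 differences were 0.80 ± 0.33 and 0.88 ± 0.33, with adjusted p-values that round to 1.00 in limma, and 1.09 and 1.21 without the weakly enriched libraries. Thioacetamide (0.70) and DEN 3 mg/kg (0.68) had the same direction against these 5 shared vehicle libraries. The water controls lay at 20.1 ± 3.15.

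Abcg4, a cholesterol exporter known from brain and macrophages, had the smallest p-values of the single contrasts at this time. Its vehicle libraries had 20.8, 21.4, 11.2, 32.3 and 27.5. With methapyrilene they had 51.6, 49.2, 34.5, 48.98 and 38.6, and with thioacetamide 33.2, 45.0, 56.6, 33.6 and 43.1, in both cases above the whole vehicle group. The log2 differences were 1.01 ± 0.30 and 0.92 ± 0.30, with adjusted p-values that round to 1.00 in limma, where 0.494% and 0.269% of all regions did not overlap. Without the weakly enriched libraries they were 1.18 and 1.08. Water controls, at 28.6, 50.5, 24.03, 24.3 and 13.2, spanned most of this range.

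Smaller and shared differences were seen for Abcd3, a peroxisomal fatty acid importer, which had 62.1 ± 24.7 in the vehicle group and 80.6 to 91.0 in the other 6 group means. Without vehicle replicate 5 its difference for methapyrilene went from 0.50 to 0.29. Slc22a9, whose transcript is Slc22a24 in RefSeq, had 42.7 ± 8.08 with acetaminophen against 25.2 ± 10.2 (0.81 ± 0.30). The bile acid carrier of the gut, Slc10a2, had 23.5 ± 9.05 with thioacetamide against 12.7 ± 5.30 (0.86 ± 0.40). Abcc6, which is needed for mineral balance, had 54.6 ± 7.22 with DEN 30 mg/kg against 34.5 ± 9.20 (0.67 ± 0.25), in a region that shares 4980 bp with that of Nomo1. Abcc10, a drug exporter, was lower with thioacetamide, at 29.6 to 44.1 against 45.6 to 61.1 in the vehicle group, and with DEN 30 mg/kg, at 34.98 to 44.4, without overlap in either case. Slco1a5 lay at 139.9 to 163 with DEN 30 mg/kg and 99.1 to 139.1 in the vehicle group, and Slco1b3 at 16.8 to 28.4 with acetaminophen and 10.3 to 16.2. None of these passed adjustment, and values did not overlap for 0.269%, 0.375% and 0.381% of all regions with thioacetamide, DEN 30 mg/kg and acetaminophen.

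Asked whether any group differed from the others at a time, limma's F test called no member (0.00633% of regions called at partial hepatectomy, 0% at terminal euthanasia). The smallest unadjusted p-values were those of Abcg3, Slc22a8 and Abce1 at the first time, 0.00335, 0.00847 and 0.0114, and of Abcg4, Slco2a1 and Abce1 at the second, 0.0184, 0.0328 and 0.0382. In all, 6 and 3 members lay under 0.05, against 4.16% and 2.55% of all regions. Leaving out 1 library at a time gave 4 to 9 and 1 to 5. At the second time the count was 1 without replicate 1 of water (2.34% of all regions). It was 5 without replicate 1 of the vehicle group (3.02%).

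Between the times, over all conditions, limma called no member of 85 while 0.0671% of all regions were called, and edgeR and DESeq2 called no member either. At an unadjusted p under 0.05 there were 7 members (6 higher at terminal euthanasia, 1 lower). That is 8.24% against 6.59% of all regions (985 higher, 94 lower). Slco1b3 was lower at terminal euthanasia, 17.5 ± 7.05 against 23.1 ± 8.60 (SD, n = 35 libraries), a log2 difference of -0.39 ± 0.13 with an adjusted p of 0.44 and a lower mean in 6 of 7 conditions. Abcg4 was higher, 34.8 ± 12.9 against 27.2 ± 12.3, by 0.39 ± 0.13 (adjusted p = 0.44), in 5 of 7 conditions. The most negative differences of Slco1b3 were with DEN 3 mg/kg (-0.85), thioacetamide (-0.80) and DEN 30 mg/kg (-0.78), against 0.03 with water and -0.0011 with acetaminophen. The other 5 were Abca7, Slco2b1, Slco3a1, Abcb11 and Abcg8, at 0.18 to 0.29. With quantile normalization there were 4 higher and 3 lower, with edgeR and with DESeq2 4 and 2, and without the weakly enriched libraries 10 and 1. For these counts the share of all regions is not given here.

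Whether a contrast differed between the times was tested for all 7, and no member was called (0% of 16385 regions in each). Members at an unadjusted p under 0.05 numbered 4 for phenobarbital against water, 8 for DEN 3 mg/kg, 5 for DEN 30 mg/kg, 4 for thioacetamide, 3 for methapyrilene, 4 for acetaminophen and 1 for DEN 30 against 3 mg/kg, with 6.63%, 5.12%, 6.70%, 2.20%, 1.81%, 3.26% and 2.06% of all regions. The smallest p-values were those of Abce1, for DEN 30 mg/kg (0.000559, log2 -2.43) and phenobarbital against water (0.00143, 2.23), with adjusted p-values of 0.73 and 0.71 in limma. Both rest on groups with weakly enriched libraries, and over the alternatives these Abce1 differences ranged from -2.76 to -1.42 and from 1.31 to 2.59. Without the weakly enriched libraries the Abce1 differences behind them were 1.13 at the first and -1.03 at the second time for DEN 30 mg/kg, and -0.82 and 0.78 for phenobarbital against water. With 1 library left out at a time, the counts were 3 to 9 for phenobarbital against water, 5 to 13 for DEN 3 mg/kg and 2 to 8 for DEN 30 mg/kg. They were 3 to 6 for thioacetamide, 2 to 5 for methapyrilene, 0 to 8 for acetaminophen and 0 to 3 between the doses. Without vehicle replicate 5 of the second time the acetaminophen count was 0 (2.07% of all regions). Without vehicle replicate 1 of that time the DEN 3 mg/kg count was 13 (7.45%).

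The labels number libraries 1 to 5 within each condition at both times, without saying that a number is an animal. The 35 pairs of libraries with the same condition and number were compared by an F test on their shared deviations. No member passed (adjusted p under 0.05 for 1.40% of 16385 regions), and 11 of 85 had an unadjusted p under 0.05 (12.9%, against 14.9% of all regions). With 1 pair left out, that count was lowest at 7 without replicate 3 of DEN 30 mg/kg (11.2% of all regions). It was highest at 19 without replicate 5 of acetaminophen (21% of all regions). The carnitine carrier Slc22a5 had the smallest p, 0.00774 (adjusted 0.18). Its deviations from the group means correlated at r = 0.54 over the 35 pairs, and 27 of them lay on the same side of the group mean at both times. The second place of Slc10a7, a member of the bile acid carrier family that is not known to carry bile acids, followed with r = 0.40 and 26 pairs (adjusted p = 0.19). Its first place, Slc22a9 and Abcc3 came next, at adjusted p-values of 0.19, 0.23 and 0.25.

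Paired libraries share a range of library numbers, and that range moved with some of these members. The second place of Slc10a7 had a median of 69.6 in libraries 61 to 70 and 43.97 in the other 60, and Abcc3 had 116 and 90.2. Without libraries 61 to 70 the correlation of Abcc3 went from 0.36 to 0.12, while that of Slc22a5 was 0.53. The first place of Slc10a7 also followed enrichment, at 57.2 to 85.1 in the 9 weakly enriched libraries and 86.9 to 220.0 in the other 61, with no overlap, and leaving those libraries out took its correlation from 0.24 to 0.62.

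**Figure D5:**
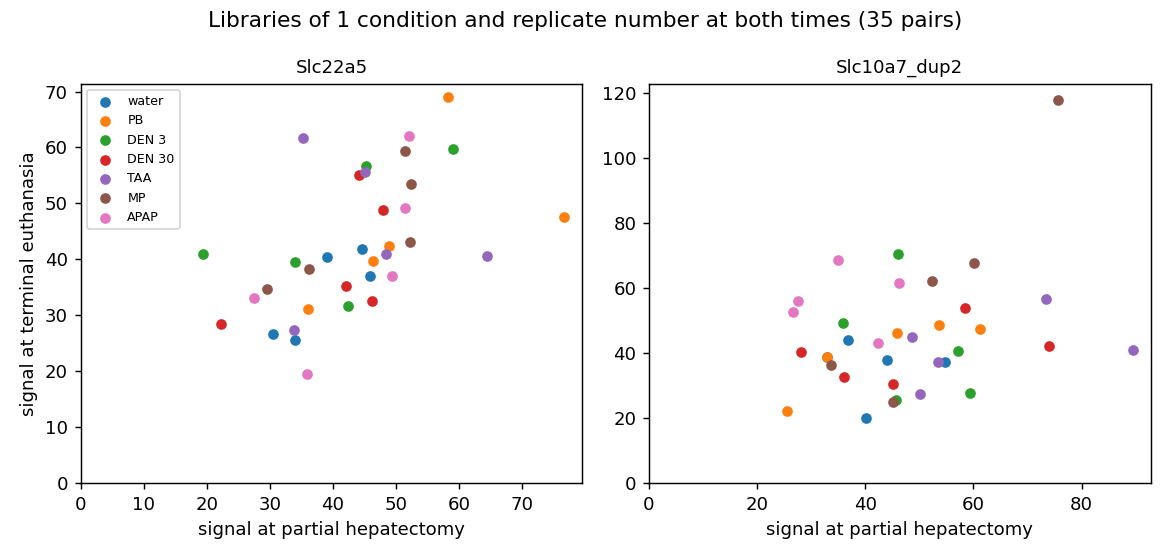
Signal (reads scaled to 50 M) at terminal euthanasia against that at partial hepatectomy for Slc22a5 (left) and the second place of Slc10a7 (right), for 35 pairs of libraries that share condition and replicate number, coloured by condition. For Slc22a5 the correlation of deviations from the group means was 0.54, and for Slc10a7 it was 0.40.

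The authors' list of peaks that differ between DEN 30 mg/kg and phenobarbital holds 66 peaks assigned to 35 of these gene symbols, of which 1, Abcb5, is not in the region tables. The list's times, 5w and 11w, were read as partial hepatectomy and terminal euthanasia. At the earlier time, 54 were higher with DEN and 0 lower, where 95.4% of the whole list of that time were higher. At the later time 4 were higher and 8 lower, and 32.3% of the whole list were higher. Most lay in introns (56), with 7 across coding exons and introns and 3 upstream of a start. The read counts were small, 15 to 31 in the higher set and at most 5 in the other, with 0 in 4 peaks.

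By the authors' enrichment factor the leading peaks of the earlier time lay in introns of Slc10a7 (21 reads against 1, 19.9) and of Slco1c1, Abcg3, Abcb9 and Abcb1a (19 against 1, 17.98). Peaks with 0 reads in the other set have no factor and were not ranked. They were all of the earlier time and higher with DEN, in Slco1c1 (24 reads), Abca13 (21), Abcd3 (17) and Slc22a2 (15). The peak of Slc10a7 is at chr19:31064906-31065131, 35076 bp from the start. At the later time the largest was a peak lower with DEN in Slc22a2 (16 against 1, 16.97), 1404 bp past the start. It was followed by peaks of Abcc6 (9.90, higher), Slco2b1 (9.55, lower), Slco6b1 (8.48, higher) and, at 7.96 and lower, Abcd2 and Abcf1. Of the 66, 4 lay inside the region of their own gene, those of Abcc6, Abcf1, Abcg2 and Slc22a14. The list gives the Abcc6 peak under Nomo1 as well. In 4 further member regions lay a peak that the list gives under another name or none. It was higher with DEN at the earlier time in Slco3a1 (16 reads against 3) and the second place of Slco1a1 (20 against 0), and lower at the later time in Abca1 (17 against 1) and Abcc9 on chromosome 4 (24 against 4). The Abcc9 peak is listed as ABCC9_RAT, a form of its own gene's name that the symbol match missed, so the 66 leave it out. Peaks under such names outside the member regions were not counted. Abcg3 had 4 peaks at the earlier time, 6643 to 50639 bp past its start and thus outside its region. The genes with most peaks were Abca13 (7), Slc22a23 (6) and Abcc6 (5). At partial hepatectomy 2 of the 5 DEN 30 mg/kg libraries are weakly enriched, and their part in the peak list was not tested.

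Other genes of bile acid handling gave no calls. Of 14 regions of bile acid synthesis and conjugation, 20 of regulators such as Nr1h4 (FXR), Nr1i2 (PXR) and Nr1i3 (CAR), and 15 of transporters outside the rule, limma called none in 22 comparisons, the 14 contrasts, the difference of the times and the 7 differences between them. At an unadjusted p under 0.05 they had 16 of 308 tests (5.19%), 21 of 440 (4.77%) and 13 of 330 (3.94%). The textbook hepatic transporters among the members had 29 of 462 (6.28%), all members 107 of 1856 (5.77%, 77 higher) and all regions 15103 of 353799 (4.27%, 9855 higher). Nr1h4 had the smallest p of the regulators, with log2 differences of 0.64 for methapyrilene and 0.63 for DEN 30 mg/kg at terminal euthanasia. Cyp7a1, the rate-limiting enzyme of bile acid synthesis, had a mean signal of 59.7 and Cyp27a1 of 25.1. The marker lists for cell types had 6 of 110 tests under 0.05 for hepatocytes, 5 of 66 for stellate cells and 3 of 154 for lymphocytes. Macrophages had 1 of 66, and biliary and endothelial cells none of 44 each. Most of the 7 lymphocyte regions are transcripts of Ptprc at the same place with the same values, so their tests repeat the same reads.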

How the data were processed

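Methylated DNA of rat liver was enriched with a methyl-binding protein kit and sequenced as 50-base SOLiD 4 reads, per the labels' protocols. The deposited signal is the authors' number of reads per region of 5625 bp, scaled per library to 50 M. All values (100%) were whole multiples of 1 read's worth within 0.01, and 0.01 stands for no read. The p-values in the deposited tables are unadjusted t-tests of each group against the vehicle group, per the file headers. The deposited peak list gives read counts and an enrichment factor (a scaled ratio of both counts), per the file headers. The aligner, peak caller and build stay unnamed in the sources used here. Libraries had 0.933 to 1.80 M reads in the regions, and 0 sample columns stayed unmapped.

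The main test was limma 3.58.1 in R 4.3.3 with an intensity trend, on log2(signal + 1), over regions with a signal of at least 10 in at least 5 libraries and with all groups of a time in the fit. P-values were Benjamini-Hochberg adjusted over all regions (15809, 16008 and 16385 for the first time, the second and both), with a threshold of 0.05. Alternatives were a pseudocount of 10, no filter, a stricter filter (20 in 10 libraries), quantile normalization, edgeR 4.0.16 and DESeq2 1.42.0 on recovered reads, a replicate block, a library number block, and fits without single libraries or sets of libraries. The statistics were tested on simulated data. Where nothing says that libraries are separate animals beyond 5 livers per group, p-values measure the spread between libraries.

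The members and lists were chosen with earlier results of these data known. Genes were named for a textbook role in liver, the 3 smallest p-values of a contrast, the 5 highest and lowest means, the smallest p-values of the F tests, and the 5 largest peaks per time; a few members that meet this rule are not reported here. Members named for groups that do not overlap, and those further down a contrast, were chosen after their values were seen. Promoters came from RefSeq (GRCr8) by transcript for 82 regions and by symbol for 6. Printed promoters are those of 3 members with the smallest p-values in a contrast and of 2 among the highest and lowest means. Replicate numbers did not pair conditions: deviations of same-numbered libraries had a median correlation of 0.008 and 0.022 at the 2 times.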

Additional observations from a re-analysis of the deposited data

Results flagged for a closer look

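A library stood apart from the other 4 of its group by Dixon's test in 30 of 386 combinations of a named member and a group (7.77%), where chance gives about 1 in 20. Of these, 25 were high and 5 low, 8 were in weakly enriched libraries and 13 in libraries 61 to 70. The part of either set was not tested.

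In the bile acid carriers, Slc10a1 was high at 51.4 in DEN 3 mg/kg replicate 1 at partial hepatectomy, and at 59.4 in methapyrilene replicate 2 and 33.2 in vehicle replicate 5 at terminal euthanasia. Slc10a2 was low at 12.3 in thioacetamide replicate 2 at partial hepatectomy. Abcb11 was high at 99.1 in thioacetamide replicate 3 at that time. Slco1b3 was high at 37.8, the first place of Slco1a1 at 80.9 and Slc22a9 at 55.7 in thioacetamide replicate 5 at terminal euthanasia. The second place of Slco1a1 was high at 32.97 and Abcb4 at 25.2 in acetaminophen replicate 5 at partial hepatectomy. Slco1a4 was low at 40.02 in thioacetamide replicate 5 at partial hepatectomy.

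Among the conjugate exporters, Abcc3 was high in replicate 5 of 3 groups at partial hepatectomy, at 135.5 with DEN 30 mg/kg, 153 with thioacetamide and 133 with methapyrilene. The first place of Abcc4 was high at 332 in DEN 3 mg/kg replicate 1 at partial hepatectomy and at 369 in acetaminophen replicate 5 at terminal euthanasia. Abcc1 was high at 72.9 in water replicate 2 at partial hepatectomy. Abcc6 (50.7) and Abcc10 (61.1) were high in vehicle replicate 4 at terminal euthanasia. The P-glycoprotein genes Abcb1a and Abcb1b were high at 68.3 and 192 in acetaminophen replicates 3 and 5 at terminal euthanasia, and Abcb6 at 127 in replicate 5.

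Abcg2 was high at 93.1 in DEN 30 mg/kg replicate 5 at terminal euthanasia. Abcg8 was low at 25.3 in vehicle replicate 1 at partial hepatectomy and high at 82.6 in thioacetamide replicate 4 at terminal euthanasia. Abcd3 was high at 103 in thioacetamide replicate 1 at terminal euthanasia, and Abce1 at 52.6 in vehicle replicate 5. Slc22a3 was high at 69.8 in vehicle replicate 4 at partial hepatectomy. Slc22a7 was low at 152.6 and 146 in replicate 3 of DEN 30 mg/kg and of methapyrilene at terminal euthanasia.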

How the results depend on the processing

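No transporter region passed adjustment under any of the alternatives run, except the first place of Slc10a7 in the test of same condition and number, without replicate 5 of acetaminophen. Of the log2 differences of named members, 1745 recomputed values kept their direction and their side of the threshold. The quantile-normalized means of Abcg2 in the water group (71.7) and Slc10a1 with DEN 30 mg/kg (20.97), both at partial hepatectomy, moved by more than the SD.

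Counts over all regions moved more, and the cause was not tested. At partial hepatectomy, DEN 30 mg/kg had 0 calls in limma, 5 with a pseudocount of 10, 1 with the stricter filter, 3 with the library block, 1 without libraries 61 to 70, 8 with only the 2 groups, 1 in edgeR and 4 in DESeq2. Methapyrilene had 1 with only the 2 groups, and DEN 30 against 3 mg/kg 1 without libraries 61 to 70. The test of any group had 1 call, 2 with a pseudocount of 10, the stricter filter or quantile normalization, 3 in edgeR, and 0 with no filter, the library block or without libraries 61 to 70. At terminal euthanasia, DEN 3 mg/kg had 1 without libraries 61 to 70 and 1 with only the 2 groups, DEN 30 mg/kg 2 with the library block, DEN 30 against 3 mg/kg 1 in edgeR, and any group 1 with quantile normalization and 3 in edgeR. The difference of the times had 11 calls, 25 with quantile normalization, 22 without weakly enriched libraries, 17 in edgeR and 18 in DESeq2. Its interaction with phenobarbital against water had 0, but 1 with quantile normalization and 1 in DESeq2. The pair test had 230 calls, 112 with the library block, 102 with no filter and 150 with quantile normalization.

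With the replicate block, DEN 30 mg/kg at partial hepatectomy had 1 call and the interaction of phenobarbital against water 2, and no other count changed by over 1.5 times. The labels do not say that a number marks an animal. Libraries of a condition at both times correlated at a median of 0.080 with the same number (11 of 35 above 0.1) and -0.012 with other numbers (20 of 140), so pairing across the times is not settled.

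Leaving out 1 library at a time gave 0 to 1 calls for phenobarbital against water, thioacetamide, methapyrilene and DEN 30 against 3 mg/kg at partial hepatectomy, and 0 to 4 for DEN 30 mg/kg and for any group. At terminal euthanasia it gave 0 to 1 for phenobarbital against water and DEN 3 mg/kg and 0 to 2 for DEN 30 mg/kg. The difference of the times ranged from 11 to 14, the interaction of phenobarbital against water from 0 to 5, the pair test from 147 to 449, and its count of transporter regions from 0 to 1. Depth limits the low members, since a signal of 10 rests on about 10 reads.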
